A study of Mus musculus with 9 samples.

Results

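The genes described here are 10 genes of autophagosome formation in C2C12 muscle fibres: Map1lc3a, Map1lc3b, Gabarap, Gabarapl1, Gabarapl2, Sqstm1, Ulk1, Becn1, Wipi1 and Tfeb. They were chosen by symbol from 24063 gene symbols in the deposited tables. No value entered that rule, but earlier results of these data were known when the genes were chosen. For each symbol, values are those of the 1 transcript that had most counts on average. All 10 passed the filter on low counts and were among the 14006 genes tested.

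C2C12 is an established mouse myoblast line, wild type per the labels, whose cells fuse into muscle fibres when serum is low. In every group the cells had been differentiated in DMEM with 2% FBS, and the time given is day 3. The 1C-MIM group (One-Carbon Metabolite Induced Medium) had 6 metabolites of the one-carbon network added to the medium of differentiated fibres. The scramble group had 6 metabolites from outside that network added instead. The control group was kept in normal medium. Each group had 3 RNA sequencing libraries, and the labels give neither the metabolites nor their doses. All libraries come from 1 cell line, and no label ties them to separate cultures, so every p-value rests on how far these libraries differ within a group, and that spread may be technical.

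Macroautophagy delivers cytoplasm, protein aggregates and organelles to the lysosome. The ULK1 kinase complex starts it, the class III PI3-kinase complex with Beclin 1 marks the growing membrane, and WIPI proteins read that mark. ATG8 proteins, the LC3 and GABARAP families, are then joined to a membrane lipid, where they hold cargo receptors such as p62. The transcription factor TFEB acts on autophagy and lysosome genes through short DNA elements, and is itself controlled largely by phosphorylation and entry into the nucleus, which RNA levels do not show. In skeletal muscle, autophagy is known for its part in removing damaged mitochondria and in fibre loss during fasting or disuse.

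The ATG8 family is shown by sequence because the results turn on how its members differed from each other. ATG4 proteases cut each ATG8 protein after a glycine near its end, and that glycine is then joined to the lipid. The last 60 coding bases up to and including that glycine codon are given 5′ to 3′, from the GENCODE M21 transcripts (GRCm38) that match the RefSeq transcripts counted. Capitals mark the 21 positions that hold the same base in all 5 genes.
Map1lc3a: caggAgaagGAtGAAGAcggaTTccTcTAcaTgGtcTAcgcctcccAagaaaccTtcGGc
Map1lc3b: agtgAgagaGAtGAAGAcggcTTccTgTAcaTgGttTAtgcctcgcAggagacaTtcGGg
Gabarap: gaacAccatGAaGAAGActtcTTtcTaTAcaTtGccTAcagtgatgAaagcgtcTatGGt
Gabarapl1: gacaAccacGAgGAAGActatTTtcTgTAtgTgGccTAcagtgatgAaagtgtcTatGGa
Gabarapl2: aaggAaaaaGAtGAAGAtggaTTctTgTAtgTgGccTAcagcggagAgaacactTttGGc
The glycine codon is followed by 5 further codons in Map1lc3b and by 1 in each of the others. Over the whole coding sequence, Map1lc3a and Map1lc3b were 74.7% identical and Gabarap and Gabarapl1 74.9%, while LC3 and GABARAP genes shared 50.4% to 55.5%. The longest run of identical bases between any pair of these transcripts was 17 bases, between Gabarap and Gabarapl1.

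With 1C-MIM, 3 of the 10 genes were higher than in control fibres and 1 was lower, and against scramble 3 were higher and 2 lower. The largest difference was in Map1lc3a, which was 2.01-fold higher than in control, and Map1lc3b and Becn1 were also higher. Gabarapl1 was lower, at 0.672 times its control level. The call rule was an adjusted p below 0.05 in edgeR's quasi-likelihood test, and under it 47.3% of all tested genes were called against control, 22.9% as higher and 24.3% as lower. Against scramble, 46% were called, 22.9% as higher and 23.2% as lower. The members' counts lie near these shares. The balance of directions depended on the scaling: with library size alone in place of TMM, 2 members were higher and 3 lower against control, and 2 higher and 2 lower against scramble. The same change gave 2606 genes higher and 3963 lower over all tested genes against control, in place of 3212 and 3409, and 2745 higher and 3651 lower against scramble, in place of 3202 and 3247. The median log2 fold change of the 10 genes was 0.11 against control and 0.08 against scramble, beside -0.01 and 0.00 over all tested genes. Both comparisons use the same 1C-MIM libraries, so their values are given side by side and are not separate evidence.

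**Figure D1:**
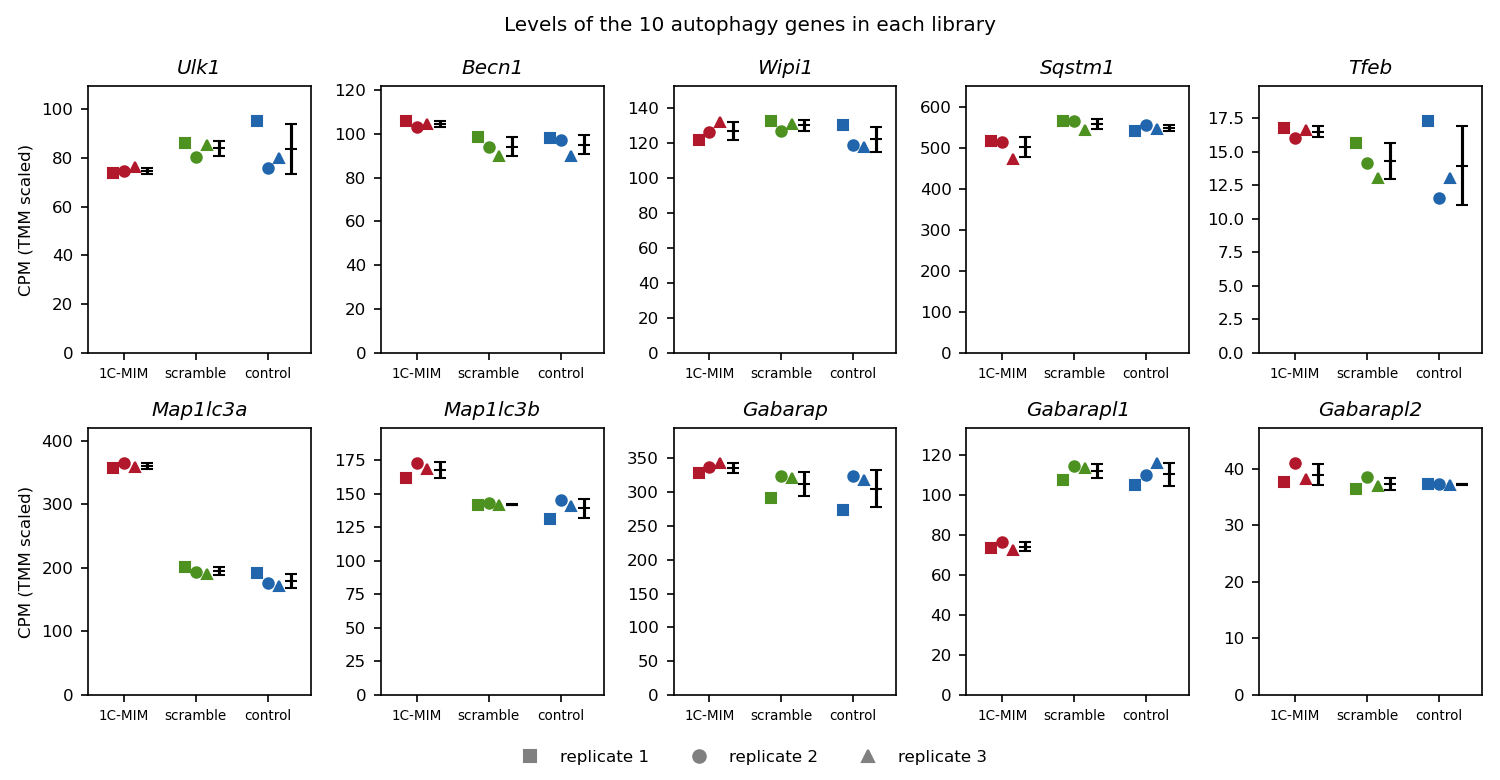
Level of each gene in each library in CPM (counts scaled to a common TMM-adjusted library size), with the y axis from 0. Squares, circles and triangles are replicates 1, 2 and 3, and the black bar is the mean ± SD of 3 libraries. The 1C-MIM libraries of Map1lc3a lie from 357 to 365 CPM, above every scramble and control library, and those of Gabarapl1 from 72.5 to 76.7 CPM, below every one.

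Map1lc3a encodes LC3A, an ATG8 protein of the LC3 branch. It had 357, 365 and 359 CPM in the 3 1C-MIM libraries, 201, 193 and 191 CPM in scramble and 191, 177 and 171 CPM in control. Every 1C-MIM library was far above every other library, while scramble and control libraries overlapped. Its log2 fold change was 1.00 ± 0.05 against control (SE, n = 3 each, edgeR adjusted p = 4.37e-07) and 0.88 ± 0.05 against scramble (edgeR adjusted p = 1.2e-06). These are bulk libraries, in which more cells of a type and more RNA per cell cannot be told apart.

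Map1lc3b encodes LC3B, the ATG8 protein most often used to count autophagosomes. It had 161, 173 and 169 CPM with 1C-MIM, 142, 143 and 142 CPM in scramble and 131, 145 and 141 CPM in control. All 1C-MIM libraries were above all others, by less than for Map1lc3a. On the log2 scale the difference was 0.27 ± 0.05 against control (edgeR adjusted p = 0.00106) and 0.24 ± 0.05 against scramble (edgeR adjusted p = 0.00221). An exon of Map1lc3b overlaps the gene Zcchc14 on the opposite strand, and neither labels nor file headers say whether reads were counted by strand. Zcchc14 averaged 122 ± 5.2 CPM with 1C-MIM and 93.4 ± 4.9 CPM in control (SD, n = 3 each). The averages of Map1lc3b were 168 ± 5.9 and 139 ± 7.2 CPM in the same groups. On the log2 scale Zcchc14 was higher by 0.38 against control (edgeR adjusted p = 0.000174), and its part in the value of Map1lc3b was not tested.

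Gabarapl1 encodes a GABARAP-branch protein that is known as a target of FoxO factors in muscle. It had 73.3, 76.7 and 72.5 CPM with 1C-MIM, 108, 115 and 114 CPM in scramble and 105, 110.0 and 116 CPM in control. Every 1C-MIM library was below every other library, and scramble and control overlapped. The log2 fold change was -0.57 ± 0.05 against control (edgeR adjusted p = 1e-05) and -0.60 ± 0.05 against scramble (edgeR adjusted p = 9.27e-06). The opposite-strand transcript 1700101I11Rik, which shares exon sequence with Gabarapl1, averaged 6.34 ± 0.56 CPM with 1C-MIM and 9.36 ± 0.82 CPM in control (SD, n = 3 each). It was lower by a log2 fold change of -0.56 (edgeR adjusted p = 0.00581), at a level far below that of Gabarapl1 itself. Reads of one cannot be told from reads of the other without strand. The part of 1700101I11Rik in the Gabarapl1 value was not tested.

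Gabarap encodes the founding GABARAP protein, and Gabarapl2 encodes GATE-16, a member of the same branch also known from transport within the Golgi. Gabarap had 329, 337 and 343 CPM with 1C-MIM, 291, 324 and 321 CPM in scramble and 274, 324 and 318 CPM in control. Gabarapl2 had 37.6, 41.1 and 38.3 CPM with 1C-MIM, 36.4, 38.5 and 37.0 CPM in scramble and 37.4, 37.2 and 37.2 CPM in control. The 1C-MIM libraries of both genes lay just above the control libraries without overlap, but neither difference passed the test. Groups of libraries did not overlap in 55.5% of all tested genes in that comparison, and in 7 of the 10 genes here. Against scramble the groups did not overlap in 59.5% of all tested genes and in 8 of the 10. For Gabarap the log2 fold change against control was 0.14, with a 95% interval of -0.01 to 0.29 (edgeR adjusted p = 0.122), and for Gabarapl2 it was 0.07, with an interval of -0.05 to 0.18 (edgeR adjusted p = 0.322). Replicate 1 was the lowest Gabarap library in each of the 3 groups. Without control replicate 1 alone, the Gabarap difference against control was 0.06 and was not called (edgeR adjusted p = 0.337). Without all 3 libraries numbered 1 it was 0.08 and was called (edgeR adjusted p = 0.0489).

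**Figure D2:**
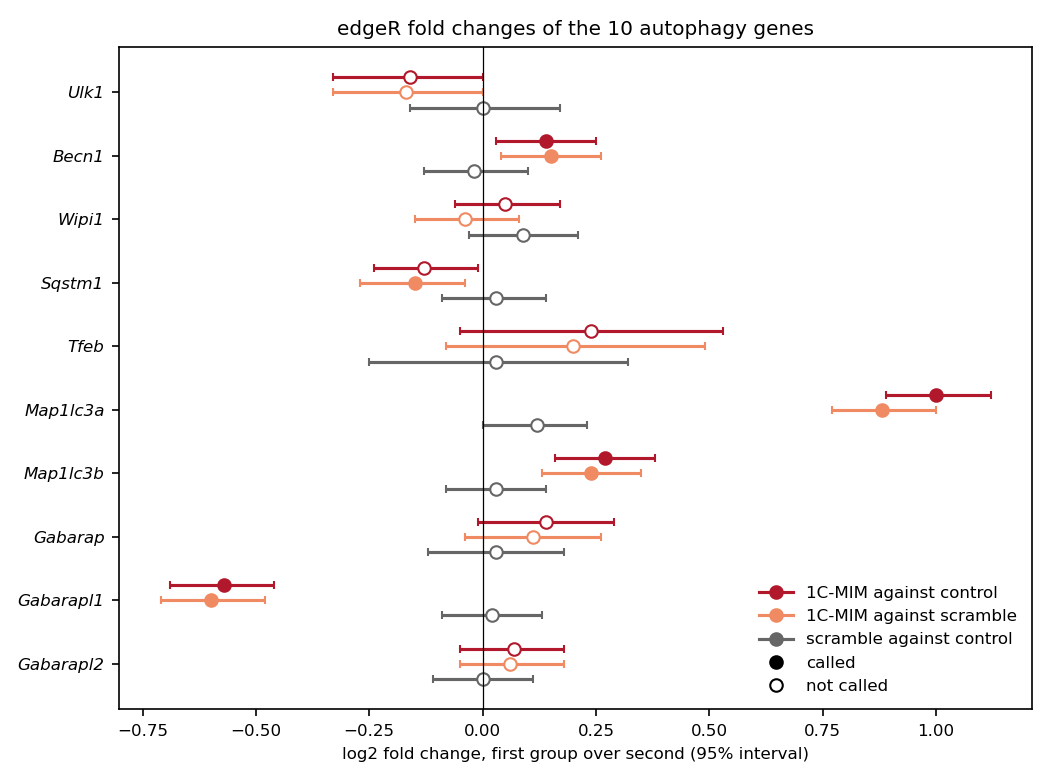
Log2 fold change of each gene in the 3 comparisons, with bars for the 95% interval of the edgeR fit. Filled points were called at an adjusted p below 0.05 and open points were not. Map1lc3a (1.00 and 0.88) and Gabarapl1 (-0.57 and -0.60) lie farthest from 0 in the 2 comparisons with 1C-MIM, and no gene was called between scramble and control.

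The composition of ATG8 RNA was compared on the authors' TPM scale, which corrects for transcript length. Summed over the 5 genes, ATG8 RNA reached 1144, 1173 and 1160.2 TPM with 1C-MIM, 893, 907 and 897 TPM in scramble and 866, 870.2 and 868 TPM in control. Map1lc3a made up 42.2%, 41.8% and 41.5% of that sum with 1C-MIM, 30.5%, 27.9% and 28.0% in scramble and 30.4%, 26.3% and 25.8% in control. The sum and the Map1lc3a share were both higher in every 1C-MIM library than in any other.

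Gabarap held the largest share outside 1C-MIM. It made up 36.4% ± 0.55 of ATG8 RNA with 1C-MIM, 42.8% ± 1.6 in scramble and 43.4% ± 2.4 in control (SD, n = 3 each), although its own level was not lower. Gabarapl1 made up 5.08% ± 0.12 with 1C-MIM, 9.74% ± 0.11 in scramble and 9.95% ± 0.36 in control. Map1lc3b stayed between 11.9% ± 0.22 with 1C-MIM and 13.0% ± 0.23 in control, and Gabarapl2 between 4.83% ± 0.16 with 1C-MIM and 6.09% ± 0.22 in control. Thus Map1lc3a stood first and Gabarap second with 1C-MIM, and the order of the pair was the other way round in scramble and control. With TPM summed over all transcripts of a gene, shared reads of Map1lc3a may count more than once. On that sum Map1lc3a stood first in all 3 groups (59.6%, 45.3% and 43.8% in 1C-MIM, scramble and control). These shares sum to a whole in each library, so a gene's share can be lower without its level being lower, and no test was made on them.

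**Figure D3:**
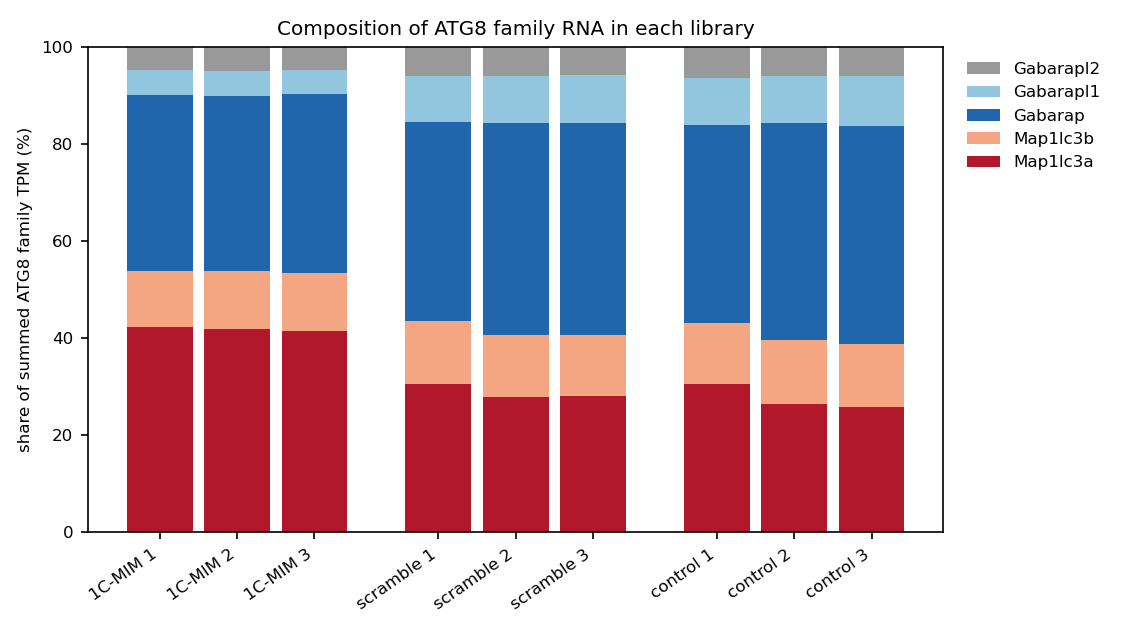
Share of each ATG8 gene in the summed TPM of the 5 genes, in percent, for each library. In the 1C-MIM bars the Map1lc3a block is 41.5% to 42.2%, above all scramble and control bars, and the Gabarapl1 block is 4.94% to 5.17%, below all of them.

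On the same TPM scale, the 10 genes spanned a wide range of levels. With 1C-MIM the order was Map1lc3a at 485 ± 5.0 TPM, Gabarap at 422 ± 7.2, Sqstm1 at 348 ± 18, Map1lc3b at 138 ± 4.3, Wipi1 at 97.9 ± 3.6, Becn1 at 72.4 ± 1.2, Gabarapl1 at 58.8 ± 1.7, Gabarapl2 at 56.0 ± 2.5, Ulk1 at 20.2 ± 0.26 and Tfeb at 9.94 ± 0.27 TPM (SD, n = 3 each). Gabarapl1 and Gabarapl2 overlapped there and the other neighbours did not. In scramble, Gabarap at 385 ± 17 and Sqstm1 at 381 ± 13 TPM came first and overlapped, followed by Map1lc3a at 259 ± 12, Map1lc3b at 115 ± 1.5, Wipi1 at 99.1 ± 3.7, Gabarapl1 at 87.6 ± 1.6 and Becn1 at 64.2 ± 4.0 TPM. In control, Gabarap at 377 ± 22 and Sqstm1 at 375 ± 7.9 TPM also overlapped, as did Wipi1 at 93.4 ± 8.5 and Gabarapl1 at 86.4 ± 3.1 TPM, and Map1lc3a was at 239 ± 22 TPM. Tfeb was the lowest of the 10 in all groups, at 8.50 ± 0.92 TPM in scramble and 8.36 ± 2.1 TPM in control.

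Sqstm1 encodes p62, the receptor that carries ubiquitinated cargo to ATG8 proteins and is itself degraded with it. It had 516, 515 and 474 CPM with 1C-MIM, 565, 566 and 543 CPM in scramble and 541, 556 and 548 CPM in control. All 1C-MIM libraries were below all others, replicate 3 by the most. The log2 fold change was -0.15 ± 0.05 against scramble, which was called (edgeR adjusted p = 0.0332), and -0.13 ± 0.05 against control, which was not (edgeR adjusted p = 0.0671). Over 18 alternative settings the call against scramble held in 13, with adjusted p from 0.00157 to 0.138. It was lost without 1C-MIM replicate 2 or 3 (-0.17 and -0.11, edgeR adjusted p = 0.0521 and 0.138) and without scramble replicate 1, 2 or 3 (-0.15, -0.14 and -0.17, edgeR adjusted p = 0.0834, 0.103 and 0.0502). Against control it was called in 5 of the 18, among them the fit without control replicate 1 (-0.14, edgeR adjusted p = 0.0399) and DESeq2 (-0.12, DESeq2 adjusted p = 0.0264). Sqstm1 shares exon sequence with Mrnip on the opposite strand, a gene at 5.90 ± 1.0 CPM with 1C-MIM and 8.02 ± 0.96 CPM in control, far below Sqstm1 itself. Mrnip (listed as 3010026O09Rik) was lower against control (-0.44, edgeR adjusted p = 0.0305), and its part in the Sqstm1 value was not tested.

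Becn1 encodes Beclin 1, the scaffold of the class III PI3-kinase complex. It had 106, 103 and 104 CPM with 1C-MIM, 98.5, 93.8 and 89.7 CPM in scramble and 98.0, 97.1 and 90.0 CPM in control. The 1C-MIM libraries were above all others by a small margin. Becn1 was higher by 0.14 ± 0.05 on the log2 scale against control (edgeR adjusted p = 0.0434) and by 0.15 ± 0.05 against scramble (edgeR adjusted p = 0.0288). The call against control held in 9 of 18 alternative settings, with adjusted p from 0.00888 to 0.167, and that against scramble in 12, with adjusted p from 0.0029 to 0.116. Against control the call was lost without any 1 of the 1C-MIM libraries, without control replicate 2 or 3 and without scramble replicate 2, with log2 fold changes of 0.10 to 0.15. Against scramble it was lost without any 1 of the 1C-MIM libraries and without scramble replicate 2 or 3, with log2 fold changes of 0.12 to 0.16. Cntd1, which overlaps Becn1 on the opposite strand, was higher by 0.17 against control (edgeR adjusted p = 0.0443), and its part in the Becn1 value was not tested.

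Ulk1 encodes the kinase that starts autophagy when mTORC1 is low or AMPK is active. It had 73.7, 74.5 and 76.2 CPM with 1C-MIM, 86.0, 80.2 and 85.5 CPM in scramble and 95.2, 75.9 and 79.9 CPM in control. The 1C-MIM libraries lay below the scramble libraries but overlapped with control, where replicate 1 stood well above the other 2. The log2 fold change was -0.16 against control, with a 95% interval of -0.33 to 0.00 (edgeR adjusted p = 0.0992), and -0.17 against scramble, with the same interval (edgeR adjusted p = 0.0924). When control replicate 1 was left out of the fit, the difference from scramble was called at the same size (-0.17, edgeR adjusted p = 0.00658). The difference from control was -0.06 without control replicate 1 (edgeR adjusted p = 0.329) and -0.05 without the 3 libraries numbered 1 (edgeR adjusted p = 0.375), and it was called without control replicate 2 (-0.23, edgeR adjusted p = 0.0298). The adjusted p over 18 alternative settings ran from 0.0298 to 0.375 against control and from 0.00658 to 0.205 against scramble.

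Wipi1 encodes a protein that binds the phosphoinositide mark on the growing autophagosome. It had 122, 126 and 132 CPM with 1C-MIM, 132, 126 and 131 CPM in scramble and 130.2, 119 and 117 CPM in control. The 3 groups overlapped. Its log2 fold change was 0.05 against control (95% interval -0.06 to 0.17, edgeR adjusted p = 0.45) and -0.04 against scramble (95% interval -0.15 to 0.08, edgeR adjusted p = 0.58). Without control replicate 1 the difference from control was 0.10 and was not called (edgeR adjusted p = 0.108), and without all 3 libraries numbered 1 it was 0.13 and was called (edgeR adjusted p = 0.0133).

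Tfeb was low and its control libraries disagreed. It had 16.8, 16.0 and 16.7 CPM with 1C-MIM, 15.7, 14.2 and 13.0 CPM in scramble and 17.3, 11.6 and 13.0 CPM in control. The 1C-MIM libraries lay above all scramble libraries and above control replicates 2 and 3, but below control replicate 1, the highest of all. The log2 fold change was 0.24 ± 0.13 against control (95% interval -0.05 to 0.53, edgeR adjusted p = 0.157) and 0.20 ± 0.13 against scramble (95% interval -0.08 to 0.49, edgeR adjusted p = 0.225), and neither was called. Without control replicate 1 it was 0.42 ± 0.09 against control (edgeR adjusted p = 0.00228), and without control replicate 2 it was 0.11 (edgeR adjusted p = 0.497). Without all 3 libraries numbered 1 it was 0.41 against control (edgeR adjusted p = 0.000829) and 0.26 against scramble (edgeR adjusted p = 0.0199). Over 18 alternative settings the value against control ran from 0.11 to 0.42 and its adjusted p from 0.000829 to 0.497, so the call on Tfeb turned on 1 control library.

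Libraries numbered 1 stood apart in muscle content as well. The summed level of 7 muscle fibre markers (Myog, Myh3, Ckm, Acta1, Tnnt3, Mymk and Des) was 8925, 7531 and 7213 CPM with 1C-MIM, 7222, 5172 and 5293 CPM in scramble and 7915, 4933 and 4444 CPM in control. Replicate 1 was the highest of its group each time. On the log2 scale, replicate 1 was above the mean of the other 2 in marker level by 0.28 with 1C-MIM, 0.46 in scramble and 0.76 in control, and in Tfeb by 0.04, 0.21 and 0.49 in the same groups. Gabarap ran the other way, at -0.05, -0.15 and -0.23, and Ulk1 was at -0.03, 0.05 and 0.29. The 1C-MIM group tended to the higher marker sum, but scramble replicate 1 and control replicate 1 were above 1C-MIM replicate 3. Myog, Ckm and Mymk were higher in every 1C-MIM library than in any other, while Acta1, Myh3, Tnnt3 and Des overlapped with control. The part of the marker level in the differences above was not tested.

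**Figure D4:**
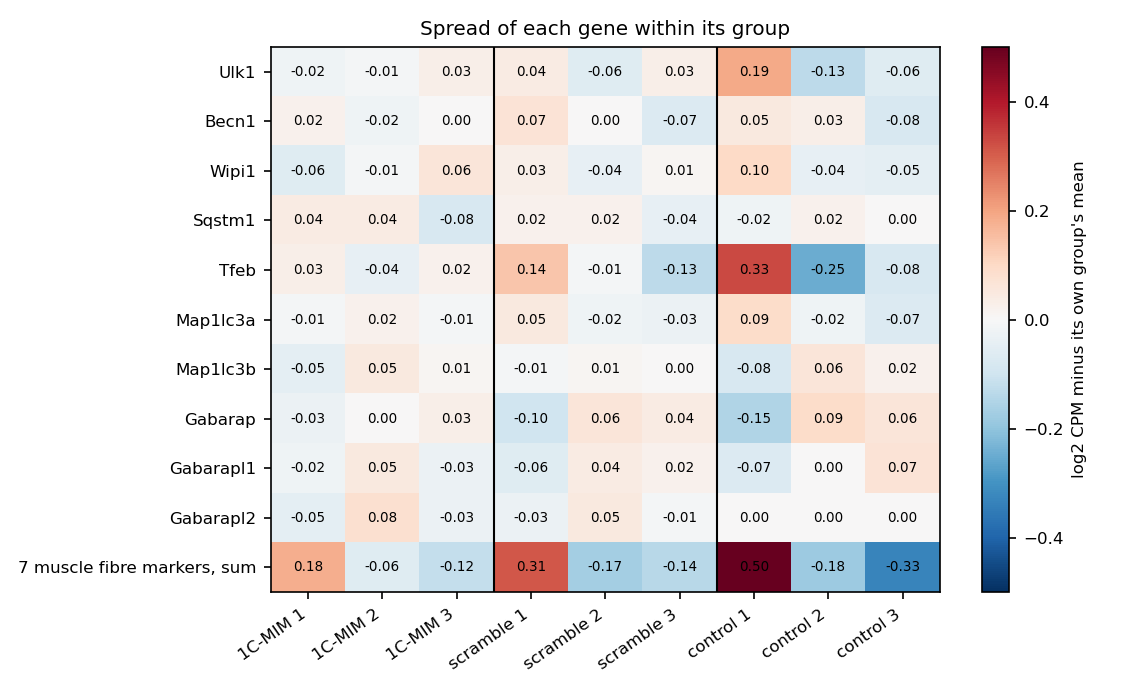
Log2 CPM of each gene in each library minus the mean of its own group, with the summed muscle fibre markers in the bottom row. Red is above and blue below the group mean. Control replicate 1 stands out, with Tfeb at 0.33 and the markers at 0.50, and Gabarapl2 varied least in control.

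Markers of other cells were checked for the same libraries. All 7 muscle fibre markers were present in every library of these cells, which are labelled as differentiated myoblasts. The summed level of 6 myoblast or reserve cell markers was 818 to 891 CPM with 1C-MIM, 922 to 1011 CPM in scramble and 867 to 990 CPM in control. Its members ran in opposite directions. Mki67, a marker of cycling cells, was at 172 to 239 CPM with 1C-MIM, 392 to 477 CPM in scramble and 373 to 474 CPM in control, and Cd34 at 43.0 to 50.8, 121 to 144 and 111 to 134 CPM in the same groups. Vcam1 was at 290.3 to 339 CPM with 1C-MIM, 169 to 185 CPM in scramble and 162 to 169 CPM in control, and Myod1 at 214 to 237, 152 to 173 and 159 to 163 CPM. In each of these 4 genes the 1C-MIM libraries did not overlap with any other. The fibroblast list, of which nearly all was Col3a1, summed to 15858 to 16189 CPM with 1C-MIM, 6976 to 7583 CPM in scramble and 6010 to 6899 CPM in control. Of its other members, Dcn was at 434 to 441 CPM with 1C-MIM, 214 to 231 CPM in scramble and 193 to 204 CPM in control. Pdgfra was at 119 to 135 CPM with 1C-MIM, 75.3 to 81.2 CPM in scramble and 70.5 to 74.4 CPM in control, and Lum at 21.8 to 27.8, 3.02 to 3.66 and 2.17 to 2.69 CPM in the same groups. Col3a1, Dcn, Pdgfra and Lum were each higher in every 1C-MIM library than in any other, while Thy1 was at most 0.141 CPM in all libraries. The part of these markers in the differences above was not tested. All 5 adipocyte markers together were at most 0.414 CPM in any library, all 4 endothelial markers at most 1.17 CPM and all 5 macrophage markers at most 4.12 CPM, with Adgre1 at 0 throughout. Of the osteoblast list (63.3 to 65.8 CPM with 1C-MIM, 64.3 to 67.7 CPM in scramble, 64.9 to 69.0 CPM in control) nearly all was Runx2.

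Between scramble and control no member was called by edgeR, by DESeq2 or by limma-voom, and 0 of the 10 genes had groups that did not overlap, beside 9.09% of all tested genes. In that comparison 0.00% of all genes were called by edgeR, 482 of 14006 had an unadjusted p below 0.05, and DESeq2 called 4. Among the members 1 had an unadjusted p below 0.05, Map1lc3a, at a log2 fold change of 0.12 ± 0.05 (unadjusted p = 0.0431, edgeR adjusted p = 1). The log2 fold changes of the 10 genes ran from -0.02 to 0.12, with a median of 0.03. The widest interval was that of Tfeb, from -0.25 to 0.32, so a difference of that size was not detectable for Tfeb with 3 libraries a group.

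Map1lc3a, Sqstm1 and Tfeb had more than 1 transcript in the tables, in which reads of shared exons may count for each transcript. Both Map1lc3a transcripts, a coding one of 1045 bases and a non-coding one of 989 bases, had a log2 fold change of 1.02 ± 0.05 against control (edgeR adjusted p = 4.06e-07 over 21134 transcripts) and of 0.89 against scramble. The 2 Sqstm1 transcripts were both at -0.11 against control and -0.15 against scramble, and the 3 Tfeb transcripts ran from 0.24 to 0.25 against control and from 0.21 to 0.23 against scramble. Transcripts of the same gene had nearly the same values, but as they may share reads their likeness is not separate evidence. The other 7 genes had 1 transcript each.

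Across all 9 libraries, Map1lc3a and Gabarapl1 ran opposite to each other in log2 CPM (Pearson r = -0.98), and Map1lc3a and Map1lc3b together (r = 0.92). After each group's mean was taken away, r was -0.77 and -0.53 over the same 9 libraries, which share groups, library totals and scaling, so these are descriptions. The genes whose profile was most like that of Map1lc3a were Tbx3 (r = 0.998), Tgfbr3 (0.997), Fgfr4 (0.997), Tjp1 (0.996) and Nppc (0.996), among 10439 genes that averaged 5 CPM or more. For Tfeb they were Kcnj12 (0.983), Erbb3 (0.976), Itga7 (0.969), Uso1 (0.969) and Cemip (0.966). After each group's mean was taken away, r was 0.948, 0.923, 0.805, 0.923 and 0.762 for the genes most like Map1lc3a, in the order given. For the genes most like Tfeb it was 0.981, 0.965, 0.975, 0.963 and 0.953. Both sets were picked by r over these same 9 libraries, so their values after removal of the group means are no separate support for the likeness.

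Of 111 further autophagy and lysosome genes, 110 were tested. With 1C-MIM, 36 were higher and 20 lower than in control (32.7% and 18.2%, median log2 fold change 0.08), and 38 were higher and 18 lower than in scramble (34.5% and 16.4%, median 0.09). Over all tested genes the shares were 22.9% higher and 24.3% lower against control, and 22.9% and 23.2% against scramble. With library size alone, 29 were higher and 23 lower than in control, and 34 higher and 21 lower than in scramble. Between scramble and control edgeR called 0 of 110, with 2 at an unadjusted p below 0.05.

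Among genes of initiation and membrane supply, calls went in both directions. Of 4 partners of ULK1, 1 was higher and 2 were lower against control: Atg101, a subunit of the complex, was at 30.8 CPM with 1C-MIM and 26.8 CPM in control (log2 fold change 0.20), Ulk2, the related kinase, at 77.9 ± 2.4 and 90.7 ± 2.6 CPM (-0.22, edgeR adjusted p = 0.00357), and the scaffold Rb1cc1 at 113 ± 1.5 and 123 ± 4.0 CPM (-0.13). Of 7 genes of the class III PI3-kinase complex, 2 were higher and 0 lower: Uvrag, at 47.9 ± 3.6 CPM with 1C-MIM and 37.3 ± 1.2 CPM in control (0.36 ± 0.06, edgeR adjusted p = 0.000621), and Ambra1, which binds Beclin 1, at 59.8 ± 0.89 and 48.8 ± 1.6 CPM (0.29, edgeR adjusted p = 4e-04). Of 6 genes of the WIPI, ATG2 and ATG9 step, which brings lipid to the growing membrane, 4 were higher and 0 lower in both comparisons. The lipid transfer proteins Atg2a and Atg2b were higher by 0.33 and 0.28 against control, and Wipi2 and Wdr45, relatives of Wipi1, by 0.25 and 0.18. These 3 lists had median log2 fold changes of 0.01, 0.11 and 0.22 against control. In the same order, 25.0%, 28.6% and 66.7% of their genes were called as higher there, beside 22.9% of all tested genes. As lower, 24.3% of all tested genes were called against control. Against scramble 22.9% of all tested genes were called as higher and 23.2% as lower. With lists of 4, 7 and 6 genes, 1 call more or less shifts a share widely.

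Of 11 genes that join ATG8 proteins to lipid, 2 were higher and 1 lower against control (18.2% and 9.09%, median 0.04), and 3 were higher and 2 lower against scramble (27.3% and 18.2%, median 0.10). The shares over all tested genes were 22.9% and 24.3% against control and 22.9% and 23.2% against scramble. Atg7, the E1-like enzyme of both conjugation systems, was at 42.04 ± 1.3 CPM with 1C-MIM and 36.0 ± 0.41 CPM in control (0.22 ± 0.05, edgeR adjusted p = 0.00376). The protease gene Atg4c was higher by 0.20 (edgeR adjusted p = 0.0202), and Atg10, the E2-like enzyme for ATG12, was lower (-0.25, edgeR adjusted p = 0.0247).

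The lowest log2 fold changes against control among the 110 genes were those of 2 cargo receptors, Bnip3 and Optn. Of 12 genes besides Sqstm1, 3 were higher and 4 lower against control (25.0% and 33.3%). Against scramble 2 were higher and 4 lower (16.7% and 33.3%). The shares over all tested genes were 22.9% and 24.3% against control and 22.9% and 23.2% against scramble, so the counts against control lie near them. Optn, a receptor for ubiquitinated mitochondria and bacteria, was at 17.1 ± 2.0 CPM with 1C-MIM, 36.5 ± 1.8 CPM in scramble and 39.0 ± 0.81 CPM in control (-1.19 ± 0.08 against control, edgeR adjusted p = 1.98e-06). The mitophagy receptor Bnip3 was at 64.2 ± 2.8 CPM with 1C-MIM, 192 ± 29 CPM in scramble and 203 ± 21 CPM in control (-1.66 ± 0.11, edgeR adjusted p = 2.97e-06), and its relative Bnip3l was lower by less (-0.39, edgeR adjusted p = 0.00174). Wdfy3, a scaffold for aggregate clearance, was higher (0.19, edgeR adjusted p = 0.0068). Of 14 genes for fusion of autophagosomes with lysosomes, 2 were higher and 3 lower against control (14.3% and 21.4%). Among them the tethering subunit Vps16 was at 33.3 ± 1.6 CPM with 1C-MIM and 47.2 ± 0.93 CPM in control (-0.50 ± 0.05, edgeR adjusted p = 2.92e-05).

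The CLEAR element is the short DNA element bound by TFEB and its relatives. Genes known for it encode lysosomal enzymes, membrane proteins and proton pump subunits. The promoters of the genes listed here were not searched for it. Of 32 such genes, 15 were higher and 6 lower with 1C-MIM than in control (46.9% and 18.8%, median 0.16), and 16 were higher and 4 lower than in scramble (median 0.16). Of all tested genes, 22.9% were called as higher and 24.3% as lower against control, and 22.9% and 23.2% against scramble. The protease gene Ctsb was at 1175 ± 47 CPM with 1C-MIM, 807 ± 2.3 CPM in scramble and 792 ± 19 CPM in control (0.57, edgeR adjusted p = 1.35e-05). Scarb2, a receptor that brings an enzyme to the lysosome, was higher by 0.49 and the pump subunit Atp6v1a by 0.38.

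Of 7 tested relatives and regulators of TFEB, 0 were higher and 2 lower in both comparisons (0.00% and 28.6%). The shares over all tested genes were 22.9% and 24.3% against control and 22.9% and 23.2% against scramble. Fnip2, a folliculin partner, was at 14.5 ± 2.5 CPM with 1C-MIM and 19.3 ± 0.44 CPM in control (-0.41 ± 0.12, edgeR adjusted p = 0.0179). Rragd, a Rag GTPase that brings TFEB to mTORC1, was at 6.34 ± 0.20 CPM with 1C-MIM and 8.29 ± 1.2 CPM in control (-0.39 ± 0.12, edgeR adjusted p = 0.0179).

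**Figure D5:**
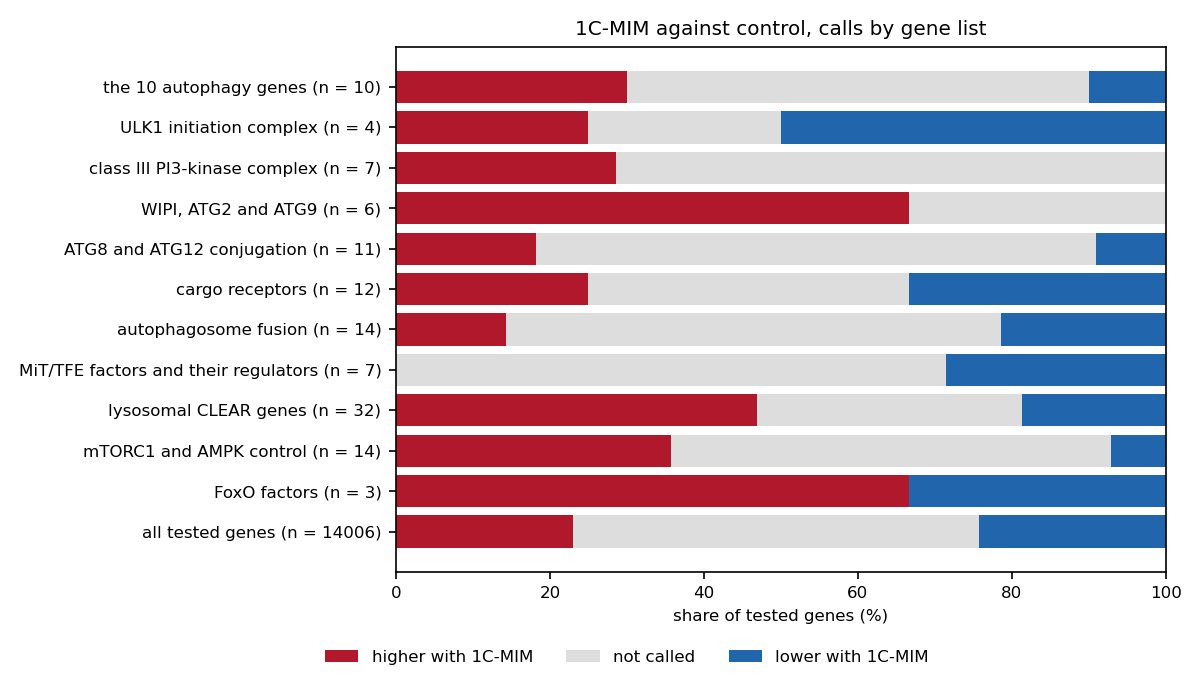
Share of tested genes in each list that was called higher (red, from the left) or lower (blue, from the right) with 1C-MIM than in control, in percent, with the number of tested genes beside each name. Over all 14006 tested genes the shares were 22.9% and 24.3%. The 32 lysosomal CLEAR genes were at 46.9% and 18.8%, and the WIPI, ATG2 and ATG9 list, of 6 genes, had none lower.

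Promoters were searched because TFEB and FoxO factors are known to bind short DNA elements near some of these genes. RefSeq promoter sequences (GRCm38.p6) were matched for 8 of the 10 genes, with 10 start sites, and not for Map1lc3a and Becn1. The 250 bases before each start site were searched on both strands for the E-box CACGTG, which also lies within the longer CLEAR element, for TCACNTGA, which can contain it, for the FoxO element GTAAACA and for the antioxidant element core TGACNNNGC. None of the 10 start sites held any of them, while of all 32851 promoters 6.02%, 3.45%, 3.17% and 10.2% did, in that order. A missing match says only that these letters are not in that window.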

How the data were processed

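Per the file headers, 3 values are deposited for each of 33984 RefSeq transcripts: count, FPKM and TPM. The authors' counts are whole numbers and not normalized. The authors' FPKM served here only to recover transcript lengths, and the deposited TPM to compare levels between genes. The submitters' processing notes name Salmon 1.5.2, STAR, StringTie 2.2.1, featureCounts, DESeq2 1.28.0 and GRCm39, without roles. The roles of these tools, and any use of strand, are not given in these sources.

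With 1 transcript per gene, count totals were 29.0 to 33.2 M per library. Genes passing filterByExpr were tested with edgeR 4.0.16 (R 4.3.3): quasi-likelihood test, TMM scaling, robust fit, all 9 libraries in 1 fit, Benjamini-Hochberg adjustment over 14006 genes, and calls at an adjusted p below 0.05. Levels given are TMM-scaled CPM, and the common biological coefficient of variation was 0.0842. The edgeR step was also run on simulated counts for the 1C-MIM and control libraries alone, with far fewer changed genes than were called here. That run does not test the fit of all 9 libraries. The members and lists were chosen with earlier results of these data known. All 10 genes are named, up to 4 genes per other list by smallest p against control, and the 5 genes most correlated with Map1lc3a and with Tfeb. Older symbols were matched through RefSeq synonyms (Mymk is listed as Tmem8c). Alternatives were other scalings and filters, DESeq2 1.42.0, limma-voom (limma 3.58.1), a replicate block and left-out libraries.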

Additional observations from a re-analysis of the deposited data

How the results depend on the processing

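Map1lc3a, Map1lc3b and Gabarapl1 were called in all 18 alternative settings in both comparisons with 1C-MIM. The number of the 10 genes called against control was 4, and 8 without the 3 libraries numbered 1. Over all genes the number called against control was 6621, and 7918 without those libraries. Leaving out 1 library gave 3 to 6 of the 10 genes against control and 3 to 6 against scramble. Against scramble 5 were called in full and 3 without 1C-MIM replicate 2 or 3 or scramble replicate 2 or 3. The same left-out fits called 5487 to 7195 of all genes against control. Against scramble they called 5267 to 7473, where 6449 were called in full. At an adjusted p below 0.01, 3 of the 10 genes were called against scramble. Of the 110 other genes, 37 were then called against control and 35 against scramble, in place of 56 and 56. That threshold left 4618 of all genes called against control, in place of 6621. Of all genes, 0 differed between scramble and control with edgeR, 4 with DESeq2, 96 without the libraries numbered 1 and 0 to 3 with 1 library left out (3 without control replicate 1). The cause was not tested.

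Between scramble and control, where no member was called, leaving out 1 library turned the direction of Map1lc3b (-0.01 to 0.06), Gabarap (-0.04 to 0.08), Gabarapl1 (-0.01 to 0.06), Becn1 (-0.05 to 0.02) and Tfeb (-0.09 to 0.22). Map1lc3b was also at -0.01 without the libraries numbered 1.

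With TPM summed over all transcripts, shared reads of Map1lc3a may count more than once. The ATG8 shares of Map1lc3a, Map1lc3b, Gabarap, Gabarapl1 and Gabarapl2 were then 59.6%, 8.25%, 25.2%, 3.52% and 3.35% with 1C-MIM. In the same order they were 45.3%, 9.81%, 32.9%, 7.47% and 4.50% in scramble, and 43.8%, 10.1%, 33.7%, 7.72% and 4.72% in control. Map1lc3a then stood first in every group.

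No label ties libraries with the same number to each other beyond that number. Their deviations from the group means correlated at 0.028 to 0.481, not above 0.1 in every pair. The pairs numbered 1 were at 0.153, 0.194 and 0.481. Libraries with unlike numbers from different groups ran from -0.369 to 0.242. With the replicate number as a block, 6 of the 10 genes were called against control and 6 against scramble. The genes added were Gabarap (0.14, edgeR adjusted p = 0.0242) and Sqstm1 (-0.13, edgeR adjusted p = 0.0327) against control, and Ulk1 (-0.16, edgeR adjusted p = 0.0449) against scramble. With that block 7397 of all genes were called against control, in place of 6621.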

Other observations

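Genes upstream of autophagosome formation were measured in the same libraries. Of 14 genes of mTORC1 and AMPK control, 5 were higher and 1 lower with 1C-MIM than in control (35.7% and 7.14%, median log2 fold change 0.12). Against scramble 4 were higher and 1 lower (28.6% and 7.14%). The shares over all tested genes were 22.9% and 24.3% against control and 22.9% and 23.2% against scramble. Sesn3, a sestrin that restrains mTORC1, was at 44.7 ± 2.9 CPM with 1C-MIM, 29.1 ± 0.94 CPM in scramble and 27.2 ± 2.3 CPM in control (0.72 ± 0.07 against control, edgeR adjusted p = 2.09e-05). Sesn2 was at 15.1 ± 0.40 CPM with 1C-MIM and 10.3 ± 0.49 CPM in control (0.55, edgeR adjusted p = 0.000127). Akt1s1, which encodes the mTORC1 inhibitor PRAS40, was higher by 0.31, and Prkaa1, a catalytic subunit of AMPK, was lower (-0.25 ± 0.04, edgeR adjusted p = 0.000834).

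The 3 FoxO factors were called in both directions, 2 as higher and 1 as lower with 1C-MIM than in control. Over all tested genes 22.9% were called as higher and 24.3% as lower in that comparison. Foxo1 was at 34.7 ± 4.3 CPM with 1C-MIM, 51.9 ± 3.6 CPM in scramble and 49.6 ± 3.9 CPM in control (-0.51 ± 0.09 against control, edgeR adjusted p = 0.000968). Foxo3 was at 34.3 ± 0.99 CPM with 1C-MIM and 25.8 ± 3.9 CPM in control (0.42 ± 0.09, edgeR adjusted p = 0.00418), and Foxo4 at 64.4 ± 3.6 CPM with 1C-MIM and 50.4 ± 1.5 CPM in control (0.35, edgeR adjusted p = 0.000278).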
